A study of Mus musculus with 32 samples.

Results

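Gene expression was compared in whole blood of 5 Fmr1 knockout mice (Fmr1-KO) and 5 wild-type (WT) littermates, 1 array a mouse. These 10 arrays of the 32 in the series were taken by their labels for genotype and tissue. Both groups were C57BL/6 congenic mice killed at 8 to 10 weeks of age, and the labels name no treatment for either. The knockout is constitutive, so every cell of the mouse carries it, and the cerebellum of each of these mice was profiled too. The other experiment of the series used Tsc2+/- mice and their WT littermates (3 of each) of a mixed 129/SvJae-C57BL/6 J background, and its blood is used here in 1 comparison. The arrays were Affymetrix Mouse Gene 1.0 ST arrays, which summarise several probes along a transcript into 1 probe set, and values are intensities in arbitrary units. Of 35556 probe sets, 32238 (90.67%) were above an intensity of 16 on at least 6 of the 10 blood arrays and are described below. Of these, 20775 carried a single gene name, for 19067 genes, and 27952 were above 16 on all 10 arrays. Another 157 of the 32238 passed with 5 arrays of one group and 1 or 2 of the other, so that a difference was built into their passing.

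Fmr1 encodes FMRP, an RNA-binding protein that travels with ribosomes and holds back the translation of many mRNAs. In people, loss of FMRP causes fragile X syndrome, the most common inherited form of intellectual disability, and most work on the protein has been done in neurons. Whole blood is a mixture: red cell precursors and platelets give much of its RNA, and neutrophils, monocytes, B cells, T cells and natural killer (NK) cells give the rest. In a mixture, fewer cells of a type and less RNA per cell cannot be told apart.

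The median intensity of an array was 134 to 153 in Fmr1-KO blood and 143 to 156 in WT blood. Fmr1-KO mouse 5 had the lowest median and the largest share of probe sets under 16 (12.4%). Defining markers of blood were bright in both groups: the 27 erythroid genes had mean log2 intensities of 11.09 to 11.48, the 15 platelet genes of 12.71 to 13.18 and the 19 B cell genes of 10.39 to 11.26. The adult globin probe sets, which match several globin genes, lay between 19810 and 28800 in all 10 mice. Of 17 cerebellar markers, 8 were above 16 on most blood arrays, and their summed intensity was 952 to 1908 in blood against at least 30330 in the cerebellum. The labels give these mice as female and the study's methods as male. Uty, a Y-linked gene, measured 896 to 1452 and Xist, the X-inactivation transcript of female cells, 17.3 to 62.6 in the 10 blood samples. Kdm5d, Y-linked as well, measured 265 to 444. These values are those of male mice in all 10 samples, so sex did not differ between the groups.

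The targeted gene was checked first. Fmr1 measured 169, 263, 237, 255.9 and 183 in Fmr1-KO mice 1 to 5, and 636, 587, 659.8, 528 and 335 in WT mice 1 to 5. All 5 Fmr1-KO values were below all 5 WT values. The mean was 2.48-fold lower in Fmr1-KO blood (log2 difference -1.295 ± 0.215 SE, n = 5 and 5). The adjusted p was 0.92 by limma with Benjamini-Hochberg adjustment over all probe sets. An exact two-sided permutation of the mice gave p = 0.0079, the smallest that 252 splits allow and the value of every gene whose groups do not overlap. By limma's p, Fmr1 ranked 7 among all probe sets and 2 among those above 16, behind Ctnnbip1. The probe set kept a clear intensity in every Fmr1-KO mouse, and where its probes lie relative to the disrupted part of the gene was not examined.

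Fxr1 and Fxr2 encode the closest relatives of FMRP, which bind ribosomes as well. Fxr1 measured 516 to 658 in Fmr1-KO blood and 328 to 616 in WT blood (log2 difference 0.19 ± 0.17 SE, exact permutation p = 0.34). Fxr2 measured 249 to 426 in Fmr1-KO blood and 283 to 474 in WT blood (-0.36 ± 0.20, exact permutation p = 0.095). The groups overlapped for both paralogs. Among 21 measured genes of FMRP and its partners, Fmr1 was the single one with an unadjusted p under 0.01 by limma. Of all 19067 genes, 0.48% reached that threshold. The median of the list was -0.09 against -0.08 over all genes.

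**Figure D1:**
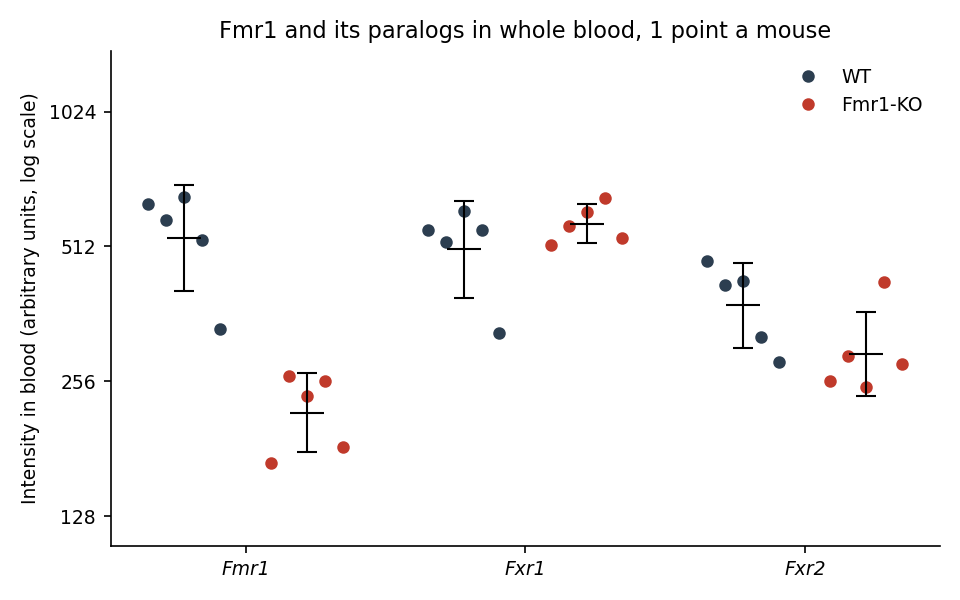
Intensity of Fmr1, Fxr1 and Fxr2 in blood on a log scale, 1 point for each of 5 WT (dark) and 5 Fmr1-KO (red) mice, with the mean and SD of log2 intensity. Fmr1 is separated between the groups (169 to 263 against 335 to 659.8), and the paralogs overlap.

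The Fmr1 gene lies on the X chromosome, and a congenic line can keep DNA of the donor strain around the mutated gene, so its neighbours were examined. Of the 20 measured genes next to Fmr1 in gene order (10 on each side), 15 were above 16 on most arrays and 0 had a p under 0.01 by limma (1 had a p under 0.05). That one was Aff2, the neighbouring fragile X gene, at 12.6 to 42.9 in Fmr1-KO and 31.6 to 50.8 in WT blood (-0.80 ± 0.31, exact permutation p = 0.040). Fmr1os, transcribed from the opposite strand beside Fmr1, measured 16.5 to 36.0 in Fmr1-KO and 7.63 to 31.2 in WT blood (0.70 ± 0.39, exact permutation p = 0.10). Ids, a lysosomal sulfatase, measured 486 to 801 and 537 to 810. The groups overlapped for these 3 neighbours. On the whole X chromosome, 7 of 673 genes had a p under 0.01 by limma (1.04%), beside 92 of 19067 genes on all chromosomes (0.48%). The 7 were Fmr1, 2010106E10Rik, Cxcr3, Plxna3, Med12, Flna and Ndp. All 7 were lower in Fmr1-KO blood, as were 78 of the 92. Ndp, at 2.29 to 46.5 in Fmr1-KO and 38.4 to 88.8 in WT blood, passed the level of 16 mainly through WT mice. A difference was thus built into its passing.

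Across all probe sets the difference between the groups was small. An unadjusted p under 0.01, the threshold of the study, was reached by 207 of 35556 probe sets (0.582%). The count was 405 without Fmr1-KO mouse 4. With the cerebellum arrays of the same mice in the fit it was 670, and with all 32 arrays 1092. Those larger fits took the spread in part from other tissue or other mice. Among the 32238 above 16, 154 reached the threshold (0.478%): 30 were higher in Fmr1-KO blood (0.0931%) and 124 were lower (0.385%). Such probe sets are called listed below, and the word carries no more than that threshold. The counts of 207 and 154 lay under the 356 and 322 that a threshold of 0.01 gives on average where nothing differs. At an adjusted p under 0.05 there were 3 probe sets (0.00844%), none of which had a gene name or was above 16 on more than 2 of the 10 arrays. Groups that did not overlap were found for 172 of the 32238 (0.534%), 40 higher and 132 lower. The median difference over all probe sets was -0.07 on the log2 scale, and 65.85% of genes were below 0, so values below 0 are to be read against this shift. With the blood arrays quantile normalized again among themselves, 122 of 232 listed probe sets were higher in Fmr1-KO blood, and with arrays centred on their median 73 of 192, against 42 of 207 as deposited.

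The spread between mice set the limit of what could be seen. The median SD over 5 mice was 0.31 log2 units in each group and depended on brightness. With the probe sets above 16 split into 5 equal classes by brightness, the median SE of a difference was 0.46 in the dimmest class, where 52 probe sets were listed. In the brightest class it was 0.13, and 11 were listed. Most of the large differences therefore belonged to dim probe sets, as the plot of difference against level shows.

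**Figure D2:**
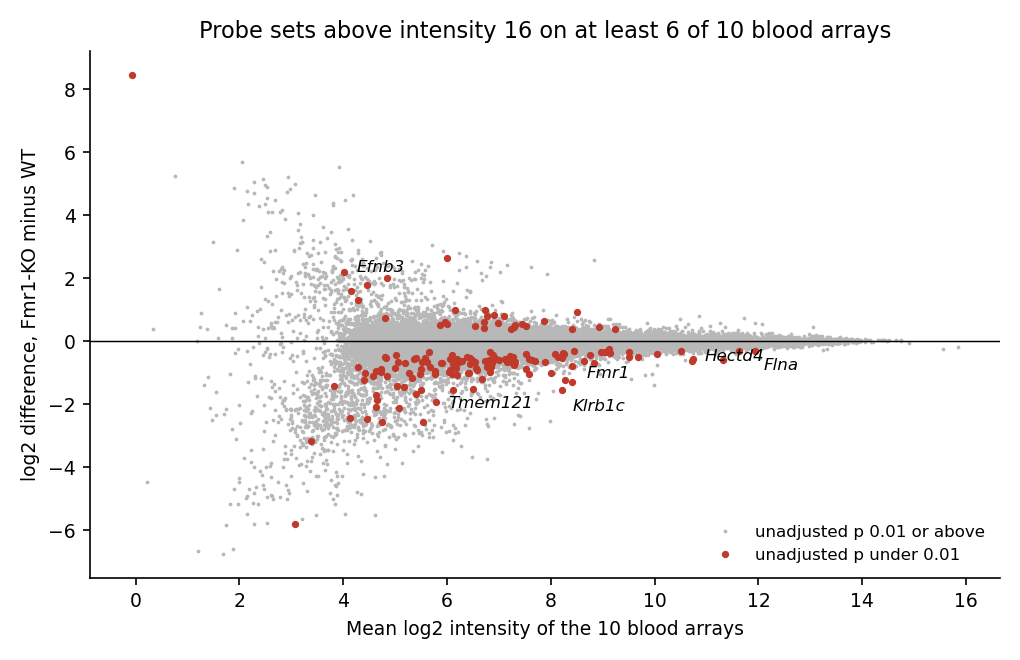
Log2 difference between Fmr1-KO and WT blood against mean log2 intensity for the 32238 probe sets above 16 on at least 6 of 10 blood arrays. The 154 at an unadjusted p under 0.01 are red and lie mostly below 0 (124 of them).

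Only 5 genes met the rule for the largest differences above 0, which asked for a single gene name, a listed probe set and groups that did not overlap. Alpi, an intestinal alkaline phosphatase, measured 73.9, 70.5, 70.3, 94.8 and 76.9 in Fmr1-KO mice 1 to 5 and 44.7, 57.8, 59.2, 48.8 and 55.8 in WT mice 1 to 5 (0.54 ± 0.12). Cenpu, a centromere protein of dividing cells, measured 195 to 253 in Fmr1-KO blood and 117 to 194 in WT blood (0.49 ± 0.15). Bsnd, a chloride channel subunit of kidney and inner ear, measured 356 to 424 and 272 to 319 (0.38 ± 0.09). Alpi, Cenpu and Bsnd were thus 1.451, 1.392 and 1.305 times as bright in Fmr1-KO blood. The defensin gene Defb26 and the gene model Gm10494 completed the 5 (0.51 ± 0.13 and 0.49 ± 0.10). Alpi, Bsnd and Defb26 are known from organs other than blood, and all 5 had an adjusted p of 0.96 by limma.

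The rule for differences below 0 was met by 36 genes, of which the 12 largest are given. Tmem121, a transmembrane protein, measured 41.0, 41.9, 43.0, 16.3 and 15.0 in Fmr1-KO mice 1 to 5 and 136, 114, 46.7, 142 and 141 in WT mice 1 to 5. Its mean was 3.69-fold lower in Fmr1-KO blood (-1.93 ± 0.44), although WT mouse 3 came close to the highest Fmr1-KO mouse. Adgrl2, an adhesion receptor of the latrophilin family that acts at synapses, measured 12.4 to 48.9 and 50.1 to 143 (-1.56 ± 0.46). 2010106E10Rik, an X-linked gene, measured 28.8, 21.8, 45.0, 38.3 and 26.4 against 64.5, 59.6, 62.3, 59.7 and 75.3 (-1.05 ± 0.20). All 3 were dim, below 50 in every Fmr1-KO mouse, and their groups did not overlap.

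Selenok, a selenoprotein of the endoplasmic reticulum that takes part in calcium entry of immune cells, was brighter. It measured 148, 114, 167, 166 and 93.0 in Fmr1-KO mice 1 to 5 and 208, 288, 447, 300.0 and 197 in WT mice 1 to 5 (-1.04 ± 0.26), 2.09-fold lower. Kif3c and Kifc2 encode kinesin motors that carry cargo along microtubules and are best known from neurons. Kif3c measured 105 to 129 in Fmr1-KO and 141 to 270 in WT blood (-0.76 ± 0.18). Kifc2 measured 85.5, 102, 109, 76.4 and 87.7 against 136, 153, 147, 173 and 141 (-0.71 ± 0.12). Kifc2 had the smaller spread of the 2 motors and ranked next to Fmr1 by limma's p, at an adjusted p of 0.93. Fmr1 was among the 12, and the rest were 3 dim chemoreceptor genes (Olfr1392, Olfr308 and Vmn2r111), the sulfotransferase gene Sult1c2 and 1 probe set of Chd7. Olfr308 measured 42.2 to 50.8 in Fmr1-KO and 70.3 to 179 in WT blood, with WT mouse 4 far above the other WT mice. Just outside the 12 stood Ctnnbip1, an inhibitor of beta-catenin, at 49.0 to 58.2 against 76.3 to 108 (-0.71 ± 0.12).

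Chd7, a chromatin remodeller named by the study, had 30 probe sets. All 30 were lower in Fmr1-KO blood, 1 was listed (40.4 to 66.7 against 72.9 to 137, -0.85 ± 0.20), and the brightest was not (-0.18 ± 0.17, exact permutation p = 0.33). After quantile normalization among blood arrays some lay above 0, by up to 0.06. Probe sets of 1 gene on the same arrays are not separate observations. The listing of Chd7 in blood thus rested on a dim probe set, and the brightest one of the same gene differed by about its error. The study named Chd7 from a model of blood and cerebellum together, which was not examined here.

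Some bright genes were listed as well, and they are named after their values were seen because spread was smallest there. Flna, which cross-links actin filaments, measured 3560.0, 3593, 3575, 3893 and 3109 in Fmr1-KO mice 1 to 5 and 4369, 4232, 4520.0, 4759 and 4019 in WT mice 1 to 5 (-0.31 ± 0.09). Tln1, talin, which links integrins to actin, measured 2924, 2909, 2962, 3127 and 2373 against 3644, 3361, 3796, 3604 and 3339 (-0.32 ± 0.10). Neither gene's groups overlapped, and Fmr1-KO mouse 5 was lowest in both. All 3 probe sets of Hectd4, a ubiquitin ligase, were listed, at -0.57 to -0.62. Med12, a Mediator subunit, measured 769 to 1113 in Fmr1-KO and 1168 to 1305 in WT blood (-0.41 ± 0.12). Of the 11 listed among 6448 probe sets of that brightness, 10 were lower in Fmr1-KO blood.

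Further listed genes, likewise chosen after their values were seen, belonged to other programmes. Nlrc5, the transactivator of MHC class I genes, measured 210.3, 309, 217, 439.9 and 189 in Fmr1-KO mice 1 to 5 and 531, 390.0, 502, 400.2 and 433 in WT mice 1 to 5 (-0.79 ± 0.24). This probe set was not the brightest of Nlrc5. The brightest was counted among the 21 antigen presentation genes below, of which 0 were listed and the lowest was at -0.42. Gbp5, an interferon-inducible GTPase, measured 158 to 222 against 211 to 440 (-0.67 ± 0.20). The groups overlapped for both genes, through Fmr1-KO mouse 4. Vdr, the vitamin D receptor, measured 63.3 to 116 against 109 to 205 (-0.82 ± 0.24). Igf2r, which sorts enzymes to lysosomes, measured 99.0 to 158 against 157 to 225 (-0.66 ± 0.16). Cpt1a, which admits fatty acids to mitochondria, measured 469.8 to 796 against 775 to 969 (-0.49 ± 0.15). All 3 overlapped at the edge of their ranges. Bean1, at 280 to 383 against 461 to 585 (-0.64 ± 0.11), and Plec, a cytoskeletal linker, at 114 to 220 against 228 to 292 (-0.62 ± 0.17), did not overlap.

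Other listed genes above 0 had overlapping groups. Cadm1, a cell adhesion molecule, measured 99.9, 121, 191, 171 and 193 in Fmr1-KO mice 1 to 5 and 84.7, 110.4, 83.9, 46.6 and 65.4 in WT mice 1 to 5 (1.00 ± 0.27). Car10, a carbonic anhydrase relative, measured 28.8 to 116 against 7.85 to 29.3 (1.99 ± 0.49). Efnb3, an ephrin, measured 18.1 to 83.8 against 2.96 to 18.2 (2.19 ± 0.55). In Car10 and Efnb3 most WT values lay under or near 16, and both passed that level mainly through Fmr1-KO mice.

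The cell composition of blood was examined with marker lists, given with counts and medians and without a test. NK cells are lymphocytes that kill virus-infected and tumour cells. All 16 NK markers were lower in Fmr1-KO blood, with a median log2 difference of -0.46 against -0.08 over all genes and quartiles of -0.54 and -0.34. One was listed and 6 had a p under 0.05 by limma, a threshold reached by 3.38% of all 19067 genes. The mean log2 intensity of the 16 genes was 8.70, 8.73, 8.75, 9.25 and 8.30 in Fmr1-KO mice 1 to 5 and 9.54, 9.48, 9.31, 9.08 and 8.80 in WT mice 1 to 5. Fmr1-KO mouse 4 lay within the WT range and WT mouse 5 close to the other Fmr1-KO mice, so the groups overlapped. The list median was -0.39 after quantile normalization among blood arrays and -0.40 after centring.

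Klrb1c, the NK1.1 receptor used to sort NK cells in C57BL/6 mice, measured 193, 237, 67.0, 378 and 134 in Fmr1-KO mice 1 to 5 and 644, 587, 719, 392.1 and 322 in WT mice 1 to 5 (-1.56 ± 0.45, exact permutation p = 0.016). The overlap came from Fmr1-KO mouse 4 and WT mouse 5. Ncr1, the activating receptor NKp46, measured 344, 364, 407, 474 and 251 against 669.9, 566, 614, 480.0 and 393 (-0.57 ± 0.20, exact permutation p = 0.032). Il2rb, the beta chain of the receptors for interleukins 2 and 15, measured 639, 628, 685, 802 and 520.4 against 989.8, 1004, 868, 833 and 726 (-0.44 ± 0.14, exact permutation p = 0.016). Mouse 4 was the brightest Fmr1-KO mouse for all 3 receptors, and mouse 5 the dimmest WT mouse.

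Cytotoxic effector genes of the list lay lower too. Prf1, perforin, measured 293 to 415 in Fmr1-KO and 341 to 517 in WT blood (-0.37 ± 0.16, exact permutation p = 0.056). Gzmb and Gzma, granzymes of the cytotoxic granule, were at -0.51 ± 0.24 and -0.53 ± 0.25 (exact permutation p = 0.071 and 0.079). Nkg7, the brightest NK marker, measured 6876 to 11060 against 8911 to 12900 (-0.28 ± 0.15, exact permutation p = 0.087). Ccl5, a chemokine of NK and T cells, measured 1702 to 2506 against 2300.0 to 3361 (-0.42 ± 0.15, exact permutation p = 0.032). Tbx21 and Eomes, the transcription factors of NK cells, were at -0.52 ± 0.26 and -0.23 ± 0.24 (exact permutation p = 0.12 and 0.38). Klrb1c had the largest difference of the list and the receptor gene Klre1 the smallest (-0.09 ± 0.16). Cxcr3, a chemokine receptor of activated T and NK cells and no member of this list, was listed: 206 to 287 against 278 to 349 (-0.40 ± 0.11, exact permutation p = 0.016).

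**Figure D3:**
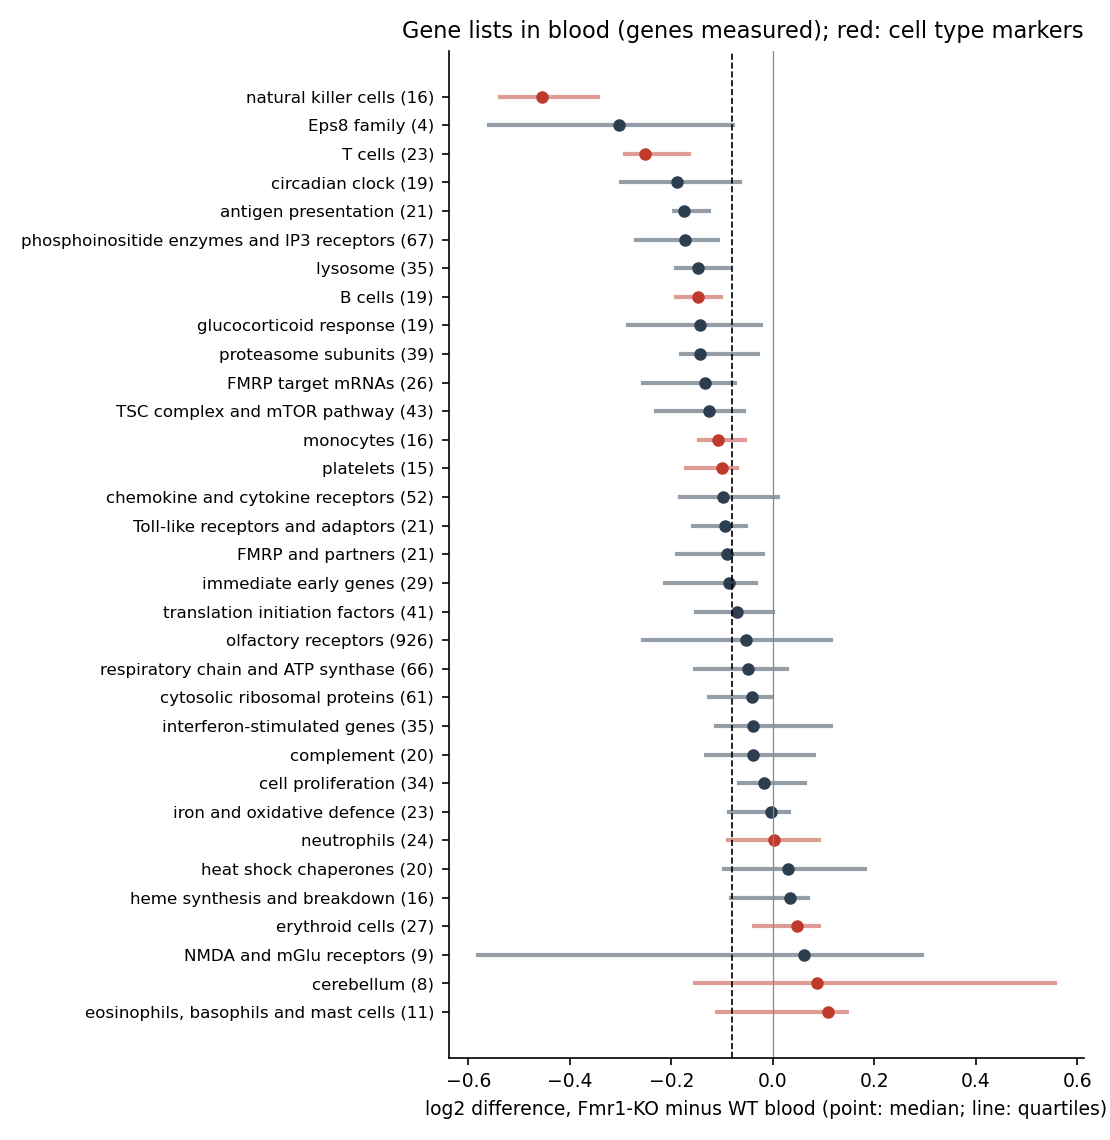
Median log2 difference (points) and quartiles (lines) between Fmr1-KO and WT blood for each gene list, with the number of genes measured above 16 in parentheses and cell type markers in red. The dashed line is the median of all genes (-0.08), and NK cell markers are the lowest list at -0.46.

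T cells recognise antigen through the T cell receptor and its CD3 chains. All 23 T cell markers were lower in Fmr1-KO blood (median -0.25), 0 were listed and 6 had a p under 0.05 by limma (3.38% of all genes did). Lat, the adaptor that relays the receptor signal, measured 1530.0, 1504, 1536, 1516 and 1172 in Fmr1-KO mice 1 to 5 and 1886, 1729, 1897, 1621 and 1694 in WT mice 1 to 5 (-0.29 ± 0.10, exact permutation p = 0.0079). Ubash3a, a damper of the same signal, measured 344, 327, 382, 368 and 244 against 452, 405, 449, 464 and 389 (-0.39 ± 0.13, exact permutation p = 0.0079). The groups of these 2 genes did not overlap. Cd3d and Lef1 were at -0.31 ± 0.12 and -0.26 ± 0.10. Lef1 did not overlap either, by a narrow margin (1340 to 1730 against 1731 to 2130). Groups did not overlap for 4 of the 23 T cell markers, beside 96 of all 19067 genes (0.50%). Without Fmr1-KO mouse 5, whose mean T cell marker level (9.61) was the lowest and whose array median was the lowest, the list median was -0.15. Lineage genes Cd4 and Cd8a were at -0.15 ± 0.13 and -0.28 ± 0.13 (exact permutation p = 0.25 and 0.032).

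Other blood cells differed less. B cell markers were lower for 17 of 19 genes (median -0.15) and platelet markers for 15 of 15 (median -0.10), and 0 were listed in either. Monocyte markers had a median of -0.11. After quantile normalization among blood arrays these 3 medians were -0.09, -0.06 and -0.04. Neutrophil markers were balanced, 12 of 24 above 0 with a median of 0.00, and their mean level ranged widely in both groups (8.52 to 9.20 and 8.38 to 9.48). Erythroid markers were higher for 18 of 27 genes (median 0.05), with Sptb, the beta chain of erythrocyte spectrin, going the other way at 1733 to 2920 against 2678 to 3452 (-0.48 ± 0.16, exact permutation p = 0.024). The 4 adult globin probe sets that match several genes differed by 0.03 to 0.05, with exact permutation p of 0.095 to 0.29. Eosinophil, basophil and mast cell markers were at a median of 0.11 over 11 genes. For each of these lists the mice of both groups overlapped in mean level, and their part in other results was not tested.

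**Figure D4:**
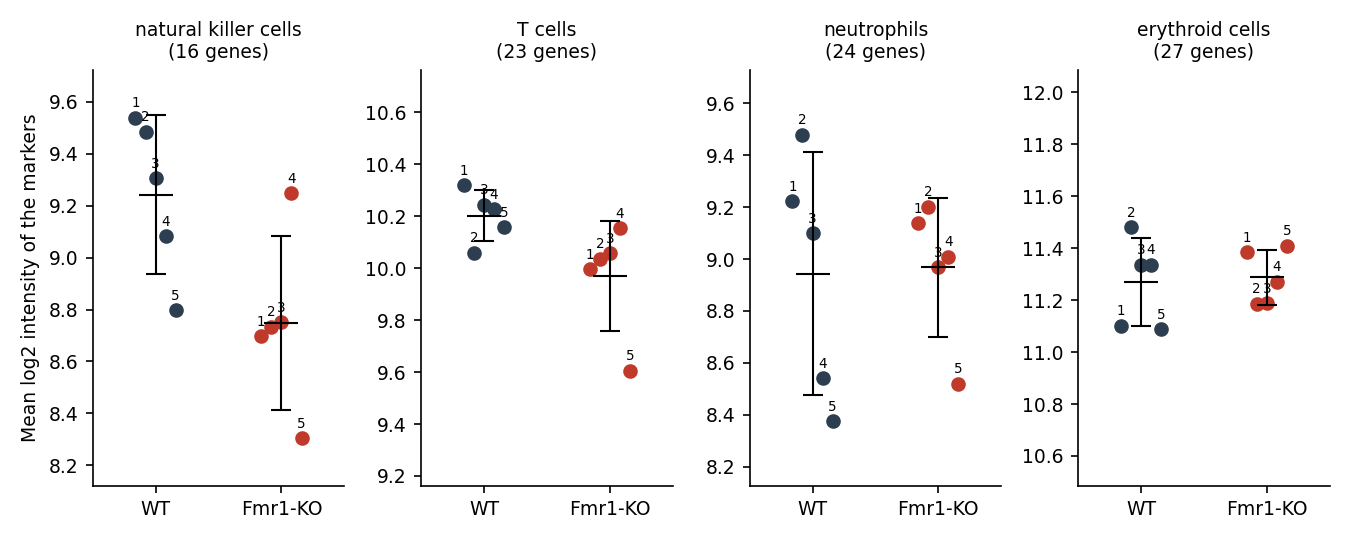
Mean log2 intensity of NK cell, T cell, neutrophil and erythroid markers in blood, 1 point a mouse with its number, with the mean and SD (n = 5); each panel spans 1.6 log2 units. NK markers were lower in Fmr1-KO mice 1, 2, 3 and 5 than in WT mice 1 to 4, while Fmr1-KO mouse 4 (9.25) lay above WT mice 4 and 5 (9.08 and 8.80).

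Transcripts that FMRP is known to bind were examined as a list of 26 genes above 16. The median was -0.13 against -0.08 over all genes, with 24 of 26 genes below 0 and 1 listed. Of all 19067 genes, 65.85% were below 0 and 0.48% were listed. After quantile normalization among blood arrays the median was -0.08 and 20 of 26 genes were below 0. The listed gene was Arc, an immediate early gene that shapes synapses, dim in blood. It measured 34.3 to 68.6 in Fmr1-KO blood and 64.6 to 183 in WT blood (-1.05 ± 0.29, exact permutation p = 0.016). Tsc2, which encodes tuberin, the brake on mTOR signalling, measured 572, 544, 567, 634 and 534 in Fmr1-KO mice 1 to 5 and 679, 693, 689, 637 and 613 in WT mice 1 to 5 (-0.22 ± 0.08, exact permutation p = 0.016). The groups overlapped through Fmr1-KO mouse 4 and WT mouse 5. The Tsc2 difference was -0.14 after quantile normalization among blood arrays and -0.16 after centring. Its unadjusted p by limma was 0.072 and 0.11 there, against 0.029 as deposited. Mtor itself measured 179 to 276 and 201 to 369 (-0.37 ± 0.18, exact permutation p = 0.087), and of 43 genes of the TSC complex and mTOR pathway 37 were below 0 with 0 listed (median -0.13, and -0.06 after quantile normalization).

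Phosphoinositide enzymes turn membrane lipids into the second messengers that open calcium stores. Of 67 such genes 55 were below 0 (median -0.17, and -0.115 after quantile normalization among blood arrays), 0 were listed, and 1 was higher and 3 lower at a p under 0.05 by limma, beside 3.38% of all genes. Pi4k2b, a phosphatidylinositol 4-kinase, measured 642 to 869 in Fmr1-KO and 279 to 614 in WT blood (0.53 ± 0.22, exact permutation p = 0.0079). Dgkz, a diacylglycerol kinase, measured 603 to 929 against 842 to 1072 (-0.32 ± 0.13), and Inpp5d, the phosphatase SHIP1 of blood cells, 1249 to 1711 against 1714 to 2003 (-0.25 ± 0.10). Of the genes that the study names in this pathway, Prkca, a protein kinase C, was at -0.28 ± 0.13 (exact permutation p = 0.063). Dgkh, Inpp4b, Inpp5a, Itpr3 and Plcb4 lay between -0.54 and -0.17 with exact permutation p of 0.19 to 0.35. Dgkb and Dgkg, which the study also names in this pathway, had no probe set with a single gene name in the table used here.

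Among other genes the study names, Eps8l1, a regulator of actin related to Eps8, measured 84.5, 123, 75.7, 109 and 139 in Fmr1-KO mice 1 to 5 and 138, 143, 167, 152 and 134 in WT mice 1 to 5 (-0.50 ± 0.17, exact permutation p = 0.024). Only Fmr1-KO mouse 5 reached the WT range. Il7r, the interleukin 7 receptor of T cells, was at -0.16 ± 0.13 (exact permutation p = 0.23). Tmlhe, an autism candidate gene that the study names, had no probe set with a single gene name. Grin3a, an NMDA receptor subunit, was above 16 on 3 of 10 blood arrays, all of them WT, at 0.0033 to 7.19 in Fmr1-KO and 6.32 to 36.4 in WT blood, values too dim for a fold.

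Housekeeping and defence programmes lay within 0.12 log2 units of the median of all genes. Ribosomal protein genes were at -0.04 over 61 genes, respiratory chain genes at -0.05 over 66, translation initiation factors at -0.07 over 41 and interferon-stimulated genes at -0.04 over 35. Antigen presentation genes were lower for 19 of 21 (median -0.17), circadian clock genes for 17 of 19 (-0.19), lysosomal genes for 32 of 35 (-0.15) and proteasome subunits for 35 of 39 (-0.14), each with 0 listed. After quantile normalization these 4 medians were -0.12, -0.12, -0.09 and -0.08. Cell proliferation genes were at -0.02 over 34. Heme synthesis (0.03) and heat shock chaperones (0.03) lay above 0, as no other of these 11 lists did, and with arrays centred on their median ribosomal, respiratory chain, interferon-stimulated and proliferation genes lay above 0 too.

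The cerebellum of the same mice was used to ask what differed between the tissues. By the interaction of genotype and tissue in limma, 194 of 35556 probe sets (0.546%) had a p under 0.01, and the 3 with an adjusted p under 0.05 were unnamed dim probe sets. Fmr1 was lower in both tissues, by 1.29 log2 units in blood and 1.77 in the cerebellum, and the difference of 0.47 ± 0.30 did not pass the test (interaction adjusted p = 0.99 by limma). Tmem121 was at 0.22 there and -1.93 in blood (interaction -2.15 ± 0.46, adjusted p = 0.79 by limma). 2010106E10Rik had an interaction of -1.15 ± 0.25, Kifc2 of -0.67 ± 0.21 and Klrb1c of -1.77 ± 0.51, each with an unadjusted p under 0.01 and an adjusted p of at least 0.94 by limma. Tmem121, 2010106E10Rik, Kifc2 and Klrb1c were picked by their blood values, which enter the interaction. Their unadjusted p is therefore no separate test of a difference between the tissues. In the cerebellum, all 16 NK markers were above 0, with a median of 0.30, at summed intensities of 1300.0 to 2593 against 12840 to 25240 in blood. This direction was not particular to NK markers. Above 0 there were also 20 of 23 T cell markers (median 0.22), 15 of 19 B cell markers (0.22) and 909 of 926 olfactory receptor genes (0.34). Erythroid markers were above 0 for 11 of 27 (median -0.05). There Fmr1-KO mouse 1 had the highest NK marker level and an array that correlated less with its group (r = 0.88 against at least 0.97 for the other 4 Fmr1-KO mice). The median interaction over NK markers was -0.74, and -0.46 without that mouse. With all mice it was -0.55 over T cell markers, -0.41 over B cell markers, -0.42 over olfactory receptor genes and 0.04 over erythroid markers.

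**Figure D5:**
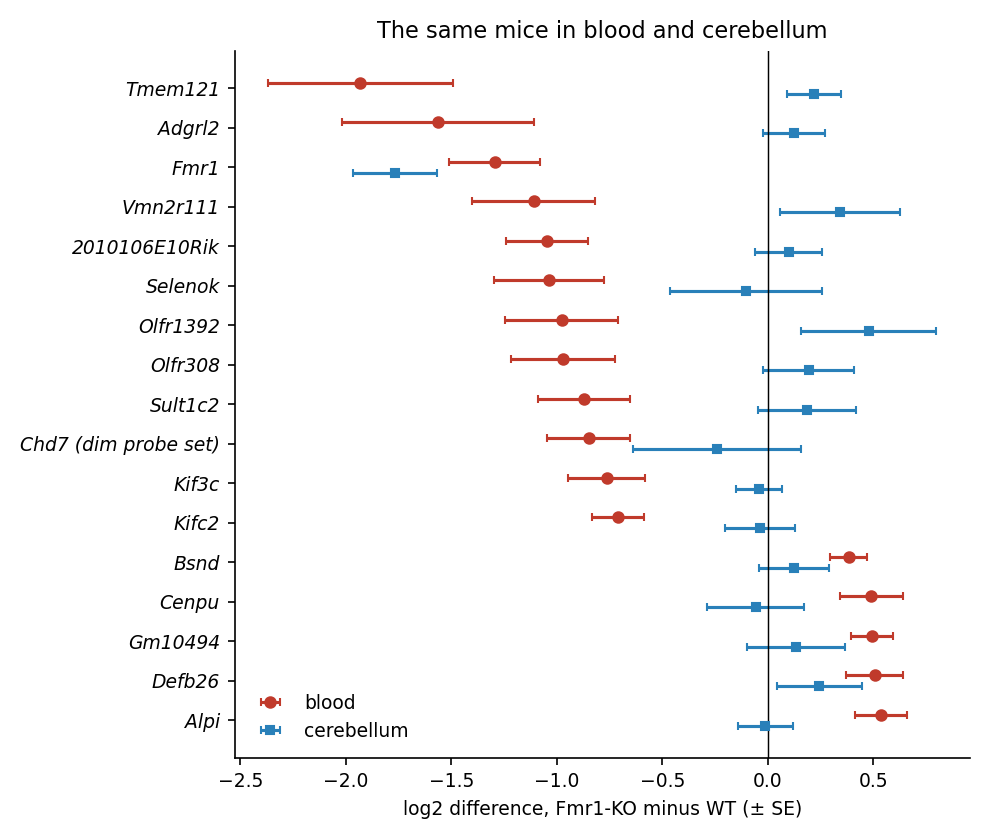
Log2 difference ± SE between Fmr1-KO and WT mice in blood (red circles) and cerebellum (blue squares) for the 17 genes of largest difference in blood among listed genes whose groups did not overlap there (5 above 0 and 12 below 0; n = 5 and 5 in each tissue). Fmr1 is lower in both tissues, and the cerebellar values of the other genes lie between -0.24 and 0.48. The genes were chosen by their blood values, so a larger difference in blood follows in part from the choice.

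The Fmr1 effect was also set against the Tsc2 effect in blood of the other experiment. In that contrast 181 of 35556 probe sets (0.509%) had a p under 0.01 by limma, and 1 unnamed dim probe set had an adjusted p under 0.05. Fmr1 itself was at -0.12 in Tsc2+/- blood (difference of effects -1.18 ± 0.34, unadjusted p under 0.01 by limma). Eps8l1 was 1.24 higher in Tsc2+/- than in its WT blood and 0.50 lower in Fmr1-KO blood (difference of effects -1.74 ± 0.40, unadjusted p under 0.01 by limma). NK markers had a median of 0.09 and T cell markers of -0.52 in Tsc2+/- blood, with 0 of 39 members at a p under 0.01 for the difference of effects. Tsc2 was lower by 0.19 in Tsc2+/- blood and by 0.22 in Fmr1-KO blood (difference of effects -0.02 ± 0.20).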

How the data were processed

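Total RNA of whole blood (250 ng of TRIzol extract) was labelled as biotin-cRNA and hybridized to 1 array a mouse. The authors quantile normalized all arrays together at the probe level and summarised them with PLIER in Affymetrix Power Tools (versions not given in the sources used here), and the deposited values are linear intensity values, not log2. Quantile normalization over blood and cerebellum together sets all arrays to a common distribution of probe values, and the array medians of the summarised values still differed. PLIER gives values near 0 for probe sets without signal, and their log2 differences are large and carry no level. The number of arrays, not depth, limits precision.

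Log2 intensity without an offset was fitted with limma 3.58.1 in R 4.3.3 (lmFit, eBayes) over all 35556 probe sets of the 10 blood arrays, with Benjamini-Hochberg adjustment over all of them; an unadjusted p under 0.01 was the threshold of the study. The interaction with tissue used the mouse as a random block (correlation 0.0050). Each mouse is a separate animal. Of the probe sets, 21789 had a single gene name, 1621 several and 12146 none in the platform annotation, and 21698 were matched to a current symbol by gene number. Lists used the brightest probe set of a gene. Named genes were Fmr1 and its paralogs, genes the study names, up to 12 of the largest differences in each direction as defined in the text, probe sets with an adjusted p under 0.05, and in each list up to 4 members with the smallest p and the 2 brightest; Flna, Tln1, Hectd4, Med12, Ctnnbip1, Mtor, Tbx21 and the genes said so in the text were added after their values were seen. The members and lists were chosen with earlier results of these data known. The scripts were tested on simulated data. Alternatives were an offset of 16, filters on dim probe sets, an intensity trend, larger fits, another scaling, a replicate block, Welch tests, which the study used for single genes, the mean over a gene's probe sets, and leaving out each mouse.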

Additional observations from a re-analysis of the deposited data

Results flagged for a closer look

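Of 90 groups of 5 mice examined by Dixon's test, 10 had a mouse apart from the rest, where chance gives about 1 in 20. Fmr1-KO mouse 5 stood low for Lat (1172), Cd3d (194.6), Lef1 (1340.0) and the mean log2 level of the T cell markers (9.61). WT mouse 5 stood low for Fxr1 (328) and Pi4k2b (279) and high for Sult1c2 (53.8). WT mouse 3 stood low for Tmem121 (46.7), WT mouse 4 high for Olfr308 (179), and Fmr1-KO mouse 4 high for Fxr2 (426).

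Of the unnamed probe sets, 3 had a different genotype effect in blood and cerebellum by the limma interaction: 10339059 (-9.47), 10339844 (-8.49) and 10342589 (-10.88). Probe set 10342883 had a different effect in the 2 models' blood (10.52). They were above 16 on at most 2 of the 10 blood arrays, and with 16 added before log2 none of these 4 had an adjusted p under 0.05.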

How the results depend on the processing

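The count of probe sets at an unadjusted p under 0.01 (207) moved to 135 with a mean log2 intensity above 6, 132 by the Welch test, which the study used for single genes, on log2 intensity, 670 with the 20 arrays of the Fmr1 experiment in the fit and 1092 with all 32. Leaving out 1 mouse gave 161 to 405, with 405 without Fmr1-KO mouse 4. The count at an adjusted p under 0.05 (3) was 0 with an offset of 16, with either filter, with an intensity trend and by both Welch tests. It was 1 after quantile normalization among blood arrays, 12 with 20 arrays, 80 with 32, and 3 to 7 with 1 mouse left out. Fmr1 was at -1.235 with the offset, -1.224 after quantile normalization among blood arrays and -1.24 after centring. By limma it passed an adjusted p of 0.05 with 20 arrays (adjusted p = 0.040) and with 32 (adjusted p = 0.0013). Its difference in those larger fits is -1.295 by construction. They take the spread of a probe set over blood and cerebellum, and with 32 arrays over both experiments. Their p values and counts thus rest in part on the spread of other tissue or other mice. The tissue interaction (3) gave 0 with the offset and 2 to 7 with 1 mouse left out. The contrast with Tsc2 (1) gave 0 with the offset, 0 after quantile normalization, and 0 to 5 with 1 mouse left out.

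The replicate numbers did not pair the mice (correlations of same-numbered mice -0.045 to 0.042). With the number as a replicate block, 144 probe sets had a p under 0.01 and 1 an adjusted p under 0.05 by limma.

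NK marker medians ranged from -0.58 to -0.36 and T cell marker medians from -0.29 to -0.15 with 1 mouse left out. The median difference of effects between the 2 models over T cell markers was 0.241, turned to -0.043 without WT mouse 3 of the Tsc2 experiment and was 0.436 without Tsc2+/- mouse 1. Of 30 named genes followed under these alternatives, none changed direction. Many of them were chosen for groups that did not overlap, so leaving out 1 mouse could not turn their direction. Several alternatives, such as the larger fits, keep the difference by construction. The unchanged direction is therefore no separate test. Of 19 at a p under 0.01, 11 kept it with any 1 mouse left out, and Kifc2 and 2010106E10Rik kept it under every alternative. Values under 16 made up 9.63% of blood values.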
